A study of Homo sapiens with 8 samples.

Results

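The complement genes described here are 9 genes chosen by symbol from the deposited expression table of 57820 genes: the central component *C3*, factor B (*CFB*), factor D (*CFD*), the C1 proteases *C1R* and *C1S*, factor I (*CFI*) and the membrane regulators *CD46*, *CD55* and *CD59*. OVCA429, an established human ovarian cancer cell line, was compared in a control form, with a short hairpin RNA (shRNA) that targets luciferase (shLuc), and in a GRHL2-knockdown form (shGRHL2 #12). The study's methods call them stable cells, and both were grown in DMEM with 10% FBS under puromycin at 2 μg/ml. Only 1 shRNA against *GRHL2*, a transcription factor that maintains epithelial genes, was used. The labels number 4 samples per group, but they differed by so little (described below) that each group was counted as 1 library sequenced in 4 runs. The comparison addresses which complement genes differ in RNA level when *GRHL2* is depleted.

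Complement is a cascade of plasma and cell-surface proteins. The classical pathway starts when the proteases C1r and C1s are activated in the C1 complex, and the alternative pathway when C3 binds factor B, which factor D then cleaves. Cleaved C3 tags a surface and, further along, a pore can form in the membrane. Host cells are guarded by CD55, which dissociates the enzymes that cleave C3, by CD46, a cofactor with which factor I cuts C3b and C4b, and by CD59, which blocks the pore. The liver makes most circulating complement, but epithelial and stromal cells also transcribe several components, and carcinoma cells commonly carry the membrane regulators.

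In the knockdown library, RNA of the alternative pathway components *C3* and *CFB* was 3.06 and 2.82 times as abundant as in the control, and *C1S* was near the floor in the control and low but present in the knockdown. The membrane regulators went different ways: *CD46* was at 0.604 of the control level, *CD55* at 1.98 and *CD59* at 1.21 times, all within the limit used for calls. *CFD* was listed at 0 throughout. Values are FPKM, fragments scaled to the effective transcript length and to the depth of the run, and a difference is shGRHL2 minus shLuc in the mean of log2(FPKM + 1). A gene counted as tested, with no significance test run, where its mean was 1 FPKM or more in at least 1 group, and as higher or lower at a difference of 1 or more, which is 2-fold on that scale. Of the 9 genes 7 passed this filter, of which 3 were higher (*C3*, *CFB* and *C1S*), 0 lower and 4 within the limit. Among all 15019 tested genes 4.97% were higher and 7.24% lower, beside 3 of the 7 complement genes higher and 0 lower, of which *C1S* passed the filter only through the knockdown. Their median difference was 0.93, that of all tested genes −0.10. Since each group was counted as 1 library, no p-value is given and no difference has a replicate check between cultures.

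The 4 runs of a group had a median coefficient of variation (CV) of 2.72% in shLuc and 2.79% in shGRHL2 over genes at 100 FPKM or more, and ± below is the SD between runs. Depth, estimated from the steps of low values, was 9350000 to 9680000 fragments per shLuc run and 9975000 to 10230000 per shGRHL2 run. *GRHL2*, the target of the shRNA, was at 31.5 to 38.7 FPKM in shLuc and 0.10 to 1.17 in shGRHL2. All 9 epithelial carcinoma markers listed were at 1 FPKM or more in shLuc and 7 in shGRHL2. Past the limit 7 were lower and 0 higher (7.24% and 4.97% among all tested genes). Those under 1 FPKM in shGRHL2 were *CDH1* (50.5 FPKM in shLuc and 0.31 in shGRHL2) and *MUC16* (9.31 and 0.42). The summed level of the 9 markers was 5021 to 5087 FPKM per shLuc run and 1801 to 1858 per shGRHL2 run. The keratins made up most of that sum, and the transcription factor *PAX8* went the other way, from 69.8 ± 3.6 to 122 ± 2.9 FPKM with runs that did not overlap. The higher share among genes past the limit was 40.7%, against 52.1% once the mitochondrial ribosomal RNAs were left out of the scaling, which moved the median of all genes by 0.14. In bulk RNA, fewer cells expressing a gene and less RNA per cell cannot be told apart.

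**Figure D1:**
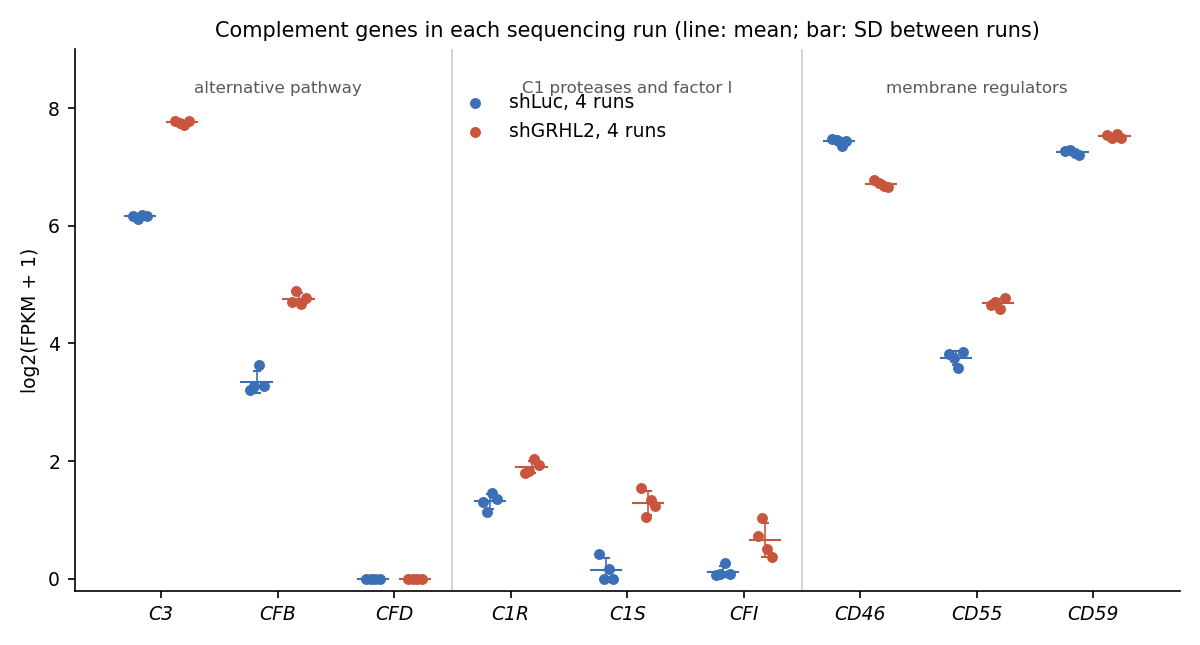
Level of each of the 9 complement genes as log2(FPKM + 1) in the 4 sequencing runs of the shLuc library (blue) and of the shGRHL2 library (red), with the mean as a line and the SD between runs as a bar. The *C3* runs lie at 68.6 to 71.4 FPKM in shLuc and 209 to 219 in shGRHL2, *CD46* is the gene whose shGRHL2 runs lie below its shLuc runs, and *CFD* is at 0 in every run. The shLuc runs of *C1S* include 2 at 0.

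*C3* (ENSG00000125730.12, chromosome 19, 6677715 to 6730573 on the minus strand of GRCh37), whose product is the protein on which all complement pathways converge, had 70.9, 68.6, 71.4 and 70.8 FPKM in the control runs and 218.9, 213.6, 209.5 and 218.9 in the knockdown runs. All shGRHL2 runs were above all shLuc runs, with a gap far wider than the spread within either library. The means were 70.4 ± 1.3 and 215 ± 4.6 FPKM, a 3.06-fold ratio and a difference of 1.60. It ranked 279 from the top among the 15019 tested genes. By approximate fragments, 7145 in shLuc and 23133 in shGRHL2, the 95% interval of the ratio from counting alone was 2.97 to 3.14. Intervals of this kind cover counting error only, and genes with several transcripts varied more between runs than counting gives (chi-square of 3.76 in shLuc and 3.81 in shGRHL2 for each degree of freedom, where counting alone gives 1). Genes with a single transcript also varied more than counting gives, at 1.56 in shLuc and 1.79 in shGRHL2.

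*CFB* (ENSG00000243649.4, chromosome 6, 31913427 to 31919863 on the plus strand), which supplies the catalytic subunit of the alternative pathway convertase, had 8.24, 8.74, 11.35 and 8.73 FPKM in the control runs and 24.9, 28.7, 24.4 and 26.4 in the knockdown runs. The groups did not overlap, and run 3 of shLuc stood above the other control runs. The ratio of means was 2.82 (9.27 ± 1.4 and 26.1 ± 1.9 FPKM), with a difference of 1.41 and a counting interval of 2.58 to 3.07. A second row of the table carries the symbol *CFB* (ENSG00000244255.1). It was listed at 0 in 7 runs and at 0.18 FPKM in run 4 of shLuc, so it took next to none of the signal. The neighboring gene *C2*, the classical pathway counterpart of factor B, overlaps *CFB* by 24 bases in Gencode v44, a later annotation than the one used for counting. It had 0.00, 0.00, 0.46 and 0.89 FPKM in the control runs and 0.00, 0.27, 0.28 and 0.25 in the knockdown runs, which overlapped.

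Factor D, the protease that activates factor B and is known as a product of fat cells, had no measurable RNA in the table: *CFD* (ENSG00000197766.3, chromosome 19, 859453 to 867884, plus strand) was listed at 0 in all 8 runs. A listed 0 need not mean absence, because the ubiquitin gene *UBB*, which all cells use, was also listed at 0 in all 4 shLuc runs and in 2 shGRHL2 runs. *CFP*, which encodes properdin, the stabilizer of the alternative pathway convertase, was at 0.00, 0.08, 0.24 and 0.27 FPKM in shLuc and 2.53, 2.90, 3.52 and 1.76 in shGRHL2, a difference of 1.66. Of the 4 genes listed for the alternative pathway 3 passed the filter and were higher (4.97% among all tested genes), *C3* and *CFB* from above among them. *CFP* passed only through the shGRHL2 group, where it was high.

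Promoters are shown for *CFB*, which was higher, and for *CD55* and *CD46*, members of the same gene cluster on chromosome 1 whose differences had opposite signs. RefSeq promoter windows (GRCh38.p14) were found for 7 of the 9 genes, and not for *C3* and *C1S*. The 250 bases before the annotated start were searched on both strands for the Grainyhead motif AACCNGTT, an NF-kB motif of 10 letters (GGG, 2 free bases, TTTCC) and its stricter form with AC as the free bases, which it contains, the STAT motif TTCNNNGAA and the C/EBP motif TTNNGNAA, which can overlap each other. Capitals mark matches, and each sequence runs 5′ to 3′ on the strand of its gene.
CFB, chr6:31945845-31946094, plus strand: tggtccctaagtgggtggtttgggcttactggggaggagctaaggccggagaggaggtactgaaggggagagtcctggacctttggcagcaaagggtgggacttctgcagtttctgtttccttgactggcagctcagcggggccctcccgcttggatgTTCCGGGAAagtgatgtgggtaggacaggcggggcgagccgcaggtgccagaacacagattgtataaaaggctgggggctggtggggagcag
CD46, chr1:207751788-207752037, plus strand: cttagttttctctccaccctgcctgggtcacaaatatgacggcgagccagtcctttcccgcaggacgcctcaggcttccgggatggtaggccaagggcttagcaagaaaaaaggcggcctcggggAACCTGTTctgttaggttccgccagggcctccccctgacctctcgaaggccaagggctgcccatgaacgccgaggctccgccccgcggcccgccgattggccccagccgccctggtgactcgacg
CD55, chr1:207321428-207321677, plus strand: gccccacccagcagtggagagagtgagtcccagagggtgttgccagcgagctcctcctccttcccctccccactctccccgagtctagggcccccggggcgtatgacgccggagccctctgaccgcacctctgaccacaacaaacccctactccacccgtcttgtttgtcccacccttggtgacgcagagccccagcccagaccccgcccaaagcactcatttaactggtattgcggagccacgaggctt

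The *CFB* window held 1 STAT match, TTCCGGGAA, at 92 to 84 bases before the start, a motif found in 6.56% of 34943 promoter windows of the same length. The *CD46* window held 1 Grainyhead match, AACCTGTT, at 125 to 118 bases before the start, found in 1.49% of windows. *CD46* has a second annotated start close by, whose window holds the same match. The *CD55* window matched none of the motifs. Among the other genes with windows, a STAT match stood in the 2 upstream windows of *CD59* and in 1 of *C1R*, and C/EBP matches, present in 33.2% of all windows, stood in windows of *CFI*, *CD59* and *C1R*. The *CFD* window held none. No member window held an NF-kB match (1.73% of all windows for the looser motif and 0.177% for the stricter). These are letter matches, and binding was not measured here.

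The protease genes of the C1 complex lie next to each other on chromosome 12. *C1R* (ENSG00000159403.11, 7187513 to 7245203, minus strand), whose product activates itself and then C1s, was at 1.47, 1.21, 1.74 and 1.57 FPKM in shLuc and at 2.47, 2.57, 3.11 and 2.83 in shGRHL2. The runs did not overlap, but the difference of 0.59 was within the limit (ratio of means 1.83, counting interval 1.27 to 2.66, from about 47 and 91 fragments). *C1S* (ENSG00000182326.10, 7096351 to 7178336, plus strand), whose product cleaves C4 and C2, was at 0.34, 0.00, 0.13 and 0.00 FPKM in shLuc and at 1.92, 1.07, 1.53 and 1.37 in shGRHL2, and again all shGRHL2 runs were above. Its difference was 1.15. By approximate fragments, 9 and 112, the ratio was 12.5 with a counting interval of 5.97 to 26.3, so its size is poorly set. *C1S* passed the filter only through shGRHL2, where it was high. The gene body of *C1R* overlaps that of *C1RL*, a related protease gene on the same strand, by 3021 bases in Gencode v44. RSEM divides any fragments shared by both, but it counted with Gencode v19, in which the overlap was not checked. *C1RL* averaged 9.35 ± 1.4 FPKM in the control and 14.3 ± 3.2 in the knockdown, with overlapping runs.

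*CFI* (ENSG00000205403.8, chromosome 4, 110652164 to 110723306, minus strand), the protease that inactivates C3b and C4b with the help of CD46 and other cofactors, did not pass the filter. It was at 0.05, 0.06, 0.20 and 0.06 FPKM in shLuc and at 0.65, 1.05, 0.42 and 0.30 in shGRHL2. The runs did not overlap, although the counts behind them were small, about 7 and 46 fragments. The ratio of means was 6.54 with a counting interval of 2.78 to 16.3, and the difference 0.54.

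Of the membrane regulators, *CD46* (ENSG00000117335.14, chromosome 1, 207925382 to 207968858, plus strand) was at 177, 175, 163 and 173 FPKM in shLuc and at 109, 105, 101 and 100.3 in shGRHL2. Every shGRHL2 run was below every shLuc run. Mean levels of 172 ± 6.3 and 104 ± 4.1 FPKM gave a difference of −0.72, within the limit, and the control level was 1.66 times the knockdown level (ratio 0.604, counting interval 0.591 to 0.617). *CD46* was the tested complement gene of the 7 with a negative difference, at rank 1886 from the bottom.

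*CD55* (ENSG00000196352.9, chromosome 1, 207494864 to 207560149, plus strand) was at 13.1, 12.5, 11.0 and 13.5 FPKM in shLuc and at 24.3, 25.2, 23.0 and 26.4 in shGRHL2, without overlap. The ratio of means was 1.98 (12.5 ± 1.1 and 24.7 ± 1.4 FPKM, counting interval 1.82 to 2.15) and the difference 0.93, just inside the limit. *C1S*, at 1.15, was the gene just outside it. With equal medians the *CD55* difference was 1.03 and without the mitochondrial ribosomal RNAs 1.09, both past the limit. *CD59* (ENSG00000085063.10, chromosome 11, 33724556 to 33758025, minus strand) was at 153, 155, 149 and 147 FPKM in shLuc and at 185, 179, 188 and 179 in shGRHL2. Its runs did not overlap either, yet the ratio was only 1.21 (counting interval 1.18 to 1.25) and the difference 0.27.

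In all 7 tested complement genes the runs of the libraries were fully separate, 6 with shGRHL2 higher and 1 with shGRHL2 lower. Among the 6 is *C1S*, which passed the filter only through shGRHL2, where it was high. Of all tested genes 51.6% had fully separate runs, 18.5% with shGRHL2 higher and 33.2% with it lower, since the runs of a group vary little. Non-overlap of runs is therefore common here and speaks only for the libraries as sequenced.

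**Figure D2:**
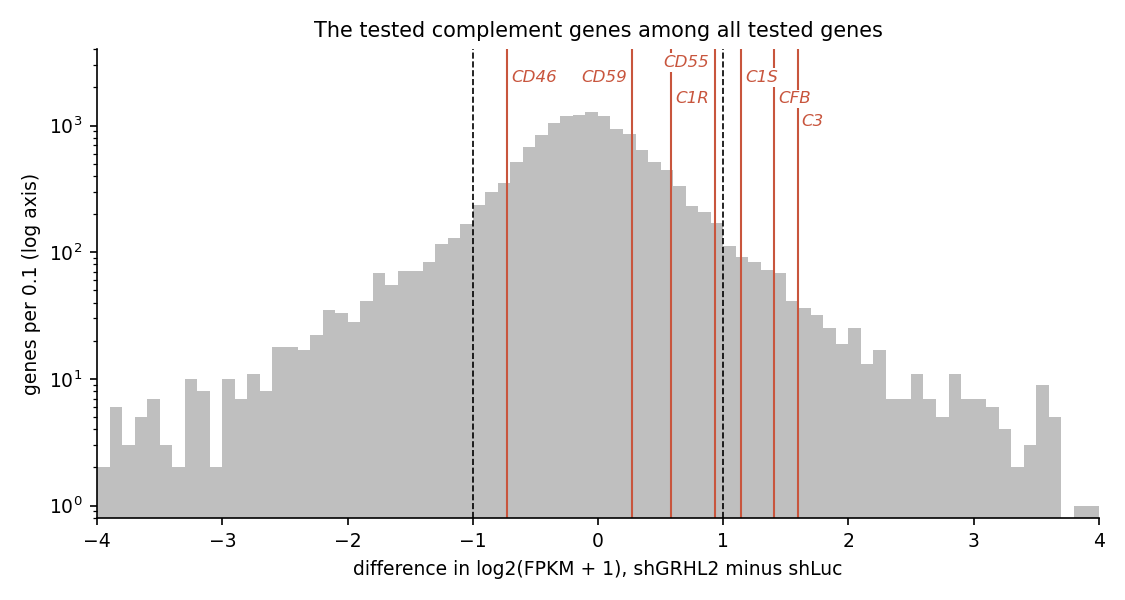
Histogram of the difference in log2(FPKM + 1), shGRHL2 minus shLuc, of the 15019 tested genes in bins of 0.1 on a log count axis, with the 7 tested complement genes as red lines and the limit of 1 as dashed lines. *C3*, *CFB* and *C1S* lie to the right of the upper limit, *CD55* just inside it at 0.93 and *CD46* at −0.72, while 30 genes below −4 and 18 genes above 4 are outside the axis.

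The order of the levels changed with the knockdown. In shLuc the order by FPKM, which is per length, was *CD46* (172), *CD59* (151), *C3* (70.4), *CD55* (12.5), *CFB* (9.27) and *C1R* (1.50), followed by *C1S*, *CFI* and *CFD* under 1 FPKM. In shGRHL2 it was *C3* (215), *CD59* (183), *CD46* (104), *CFB* (26.1), *CD55* (24.7), *C1R* (2.75) and *C1S* (1.47), with *CFI* at 0.605. The runs of *CFB* and *CD55*, neighbors in both orders, overlapped within each library, and those of *C1R* and *C1S* did not.

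Ratios between genes within a run do not depend on the scaling of that run. The ratio of *C3* to *CD46* was 0.393 to 0.439 in the shLuc runs and 2.01 to 2.18 in the shGRHL2 runs, and that of *C3* to *CD59* 0.443 to 0.482 and 1.11 to 1.22. The ratio of *C3* to *CFB* was 6.29 to 8.60 in shLuc and 7.45 to 8.78 in shGRHL2. These ranges overlapped. The ratio of *CD55* to *CD46* was 0.0676 to 0.0779 in shLuc and 0.223 to 0.263 in shGRHL2. The summed level of the 3 membrane regulators was 323 to 343 FPKM in shLuc and 306 to 318 in shGRHL2. Unlike the ratios, this sum depends on the scaling, and its direction between the libraries was not checked under other scalings. Leaving out the mitochondrial ribosomal RNAs moved the difference of *CD46* from −0.72 to −0.57. It moved that of *CD59* from 0.27 to 0.43 and that of *CD55* from 0.93 to 1.09. Within that sum *CD46* took 51.2% on average in shLuc and 33.3% in shGRHL2, *CD59* 45.0% and 58.7%, and *CD55* 3.73% and 7.95%.

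**Figure D3:**
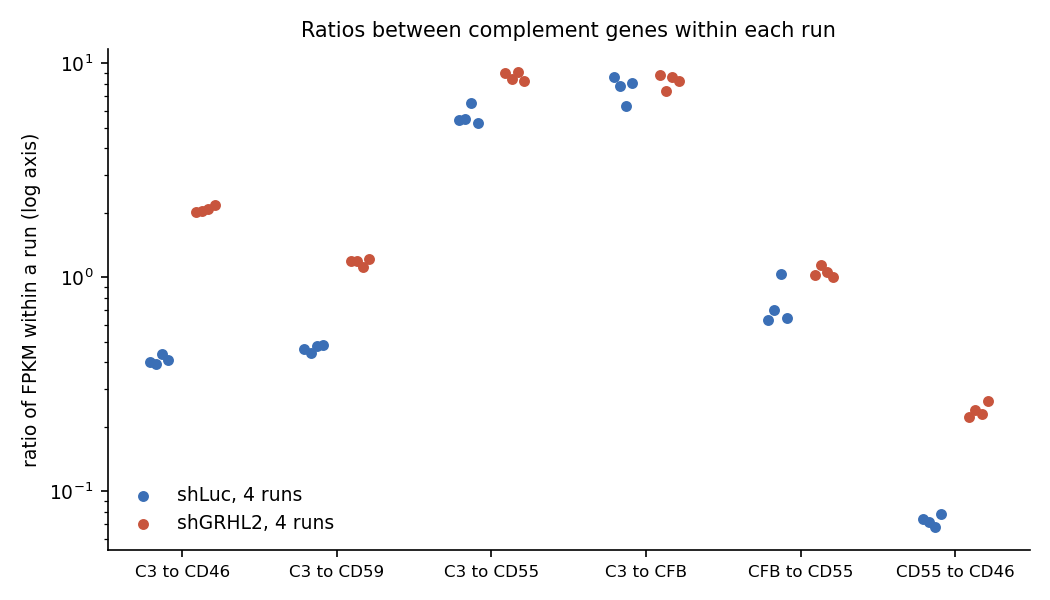
Ratios of FPKM between pairs of complement genes within each sequencing run, on a log axis, in the 4 shLuc runs (blue) and the 4 shGRHL2 runs (red). The ratios of *C3* to the membrane regulators and of *CD55* to *CD46* are separated between the libraries, whereas those of *C3* to *CFB* overlap (6.29 to 8.60 and 7.45 to 8.78).

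The rest of the complement system was compared through 6 lists holding 63 genes, members included, of which 18 passed the filter. Of these 5 were higher (*C3*, *CFB*, *CFP*, *C4BPB* and *C1S*), 0 lower and 13 within the limit, beside 4.97% higher and 7.24% lower among all tested genes. Of the 18 genes 6 passed the filter only through the knockdown, where they were high (*C1S*, *CFP*, *C4BPB*, *C4A*, *C4B* and *SERPING1*), so the count is no support for a direction. *C4BPB*, the β chain of the C4b-binding protein, was at 0.50, 0.27, 0.00 and 0.00 FPKM in shLuc and at 2.47, 3.45, 3.80 and 2.77 in shGRHL2, a difference of 1.80. It lies upstream of *CD55* in the gene cluster of complement regulators on chromosome 1 (207262205 to 207273338). *C4BPA*, which encodes the α chain, lies between them and had a value above 0 in only 1 of the 8 runs, 0.05 FPKM in a knockdown run. In the same cluster, between *CD55* and *CD46*, the receptor gene *CR1* reached at most 0.09 FPKM in any run and *CR2* 0.85. *C4BPA*, *CR1* and *CR2* did not pass the filter. Among the tested genes of the cluster named here, the difference was 1.80 for *C4BPB*, 0.93 for *CD55* and −0.72 for *CD46*.

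Of the classical and lectin pathway list 5 of 18 genes were tested. Besides *C1R*, *C1S* and *C1RL* these were *C4A* (0.46 and 1.17 FPKM, difference 0.58) and *C4B* (0.51 and 1.01, difference 0.44), near-identical genes whose split by RSEM is uncertain. The chains of C1q, *C1QA*, *C1QB* and *C1QC*, which macrophages are known to make, were listed at 0 in all 8 runs. Of the 7 terminal pathway genes, which form the membrane pore, none passed the filter. *C5*, the precursor from which the pore starts, averaged 0.873 ± 0.23 FPKM in the control and 0.667 ± 0.068 in the knockdown. Of 14 soluble regulators 4 were tested and *C4BPB* was higher (4.97% among all tested genes). The C1 inhibitor *SERPING1* was at 0.613 ± 0.099 and 1.34 ± 0.25 FPKM (difference 0.53), and clusterin, *CLU*, at 6.71 ± 0.72 and 7.04 ± 1.7 with overlapping runs.

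Among 9 membrane regulators listed only *CD46*, *CD55* and *CD59* passed the filter. Of 11 receptors and binding proteins 3 were tested and none was past the limit, beside 12.2% of all tested genes. *CALR*, a chaperone that also binds C1q, was at 477 ± 2.7 and 374 ± 3.2 FPKM (difference −0.35), *C1QBP*, a mitochondrial protein named for C1q binding, at 110 ± 7.9 and 76.3 ± 2.1 (difference −0.53), and the integrin chain *ITGB2* of complement receptors at 1.09 ± 0.56 and 1.95 ± 0.65 with overlapping runs. CD55 and CD59 are held in the membrane by a glycosylphosphatidylinositol (GPI) anchor. Of 28 tested genes of GPI anchor synthesis and transfer 27 were within the limit, 1 higher and 0 lower (4.97% and 7.24% among all tested genes). The median difference of the list was −0.10, and that of all tested genes was also −0.10. The exception was *MPDU1*, needed for use of dolichol-linked mannose, at 3.11 ± 0.91 and 9.98 ± 1.2 FPKM (difference 1.44).

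**Figure D4:**
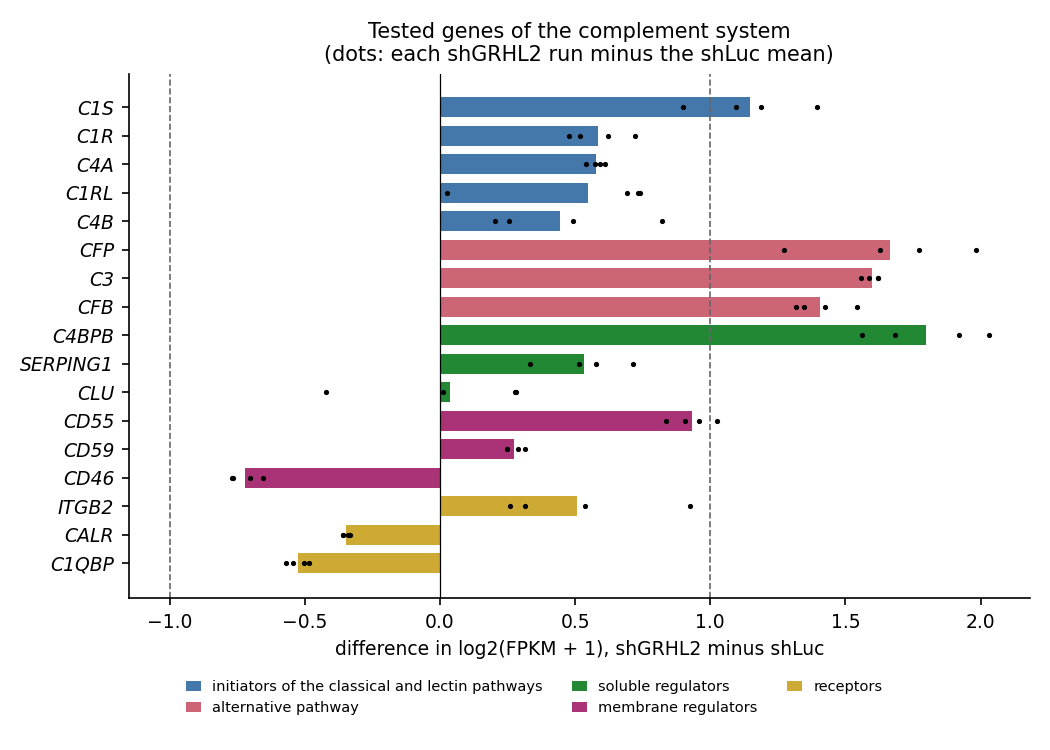
Difference in log2(FPKM + 1), shGRHL2 minus shLuc, of 17 of the 18 tested genes of the complement lists (bars, colored by list), with each shGRHL2 run minus the shLuc mean as a dot and the limit of 1 as dashed lines. The bars of *C1S*, *CFP*, *C3*, *CFB* and *C4BPB* pass the upper limit, and *CD46*, *CALR* and *C1QBP* lie below 0.

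Several complement genes are known to be induced in epithelial cells and liver by interleukin 1, interleukin 6 and interferon, and are grouped with the acute-phase proteins. Of 20 tested cytokine, receptor and transcription factor genes of this kind 4 were higher and 0 lower (4.97% and 7.24% among all tested genes). *IL1B* averaged 4.18 ± 0.37 FPKM in the control and 142 ± 3.6 in the knockdown, *IL1A* at 4.65 ± 0.91 and 58.7 ± 3.0, *IL6* at 6.58 ± 0.41 and 22.1 ± 1.2, and the transcription factor *CEBPD* at 4.63 ± 0.65 and 18.1 ± 0.58. The interferon-responsive factor *IRF1* (41.4 ± 2.7 and 21.4 ± 1.6, difference −0.92) was within the limit. *RELA*, a subunit of NF-kB, was at 17.0 ± 0.91 and 17.4 ± 1.3 with overlapping runs.

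Acute-phase genes other than complement went both ways, with 2 higher and 4 lower of 9 tested (4.97% and 7.24% among all tested genes). The pattern recognition protein *PTX3* was at 3.40 ± 0.54 and 51.8 ± 1.4 FPKM and ceruloplasmin, *CP*, which passed the filter only through the knockdown, at 0.898 ± 0.30 and 10.4 ± 1.7. The siderophore-binding protein *LCN2* had 376 ± 8.2 and 20.6 ± 1.1 FPKM (18.2-fold lower), and the protease inhibitor *SERPINA1* at 35.2 ± 0.93 and 14.4 ± 0.39. The serum amyloid genes *SAA1* (20.3 ± 3.3 and 5.44 ± 0.85) and *SAA2* (34.0 ± 3.7 and 6.94 ± 0.63), which are near-identical and share fragments, were also lower. *C3* and *CFB* thus differed in the same direction as *PTX3* and *CP* and in the opposite direction to *LCN2*, *SERPINA1* and the serum amyloids.

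Markers of other cell types known to make complement were mostly near the floor in both libraries. Of 8 hepatocyte markers only *SERPINA1* was at 1 FPKM or more. *APOB*, *TTR* and *CYP3A4* were listed at 0 in all runs. Albumin, *ALB*, was above 0 in 2 of the 8 runs, at 0.26 and 0.71 FPKM, both of the knockdown. Of 12 macrophage and monocyte markers 6 were listed at 0 in all runs, *TYROBP*, *CD163* and *AIF1* among them, and their summed level was 2.64 to 3.67 FPKM in shLuc and 3.39 to 4.99 in shGRHL2. Within that sum *CD68*, a lysosomal protein, averaged 0.880 ± 0.31 FPKM in the control and 2.74 ± 0.70 in the knockdown, and the receptor *CSF1R* 1.32 ± 0.18 and 0.398 ± 0.088, each without overlap. Of 9 fibroblast markers 1 was at 1 FPKM or more in either group, the collagen chain *COL1A1* (1.19 ± 0.70 FPKM in the control and 3.64 ± 1.0 in the knockdown, difference 1.10). *DCN* was listed at 0, and the fibroblast markers summed to 1.23 to 3.50 and 3.61 to 5.32 FPKM. The 5 adipocyte markers summed to at most 0.13 FPKM in any run. The part of fibroblast and macrophage marker RNA, and of the differing epithelial markers, in the complement differences was not tested.

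**Figure D5:**
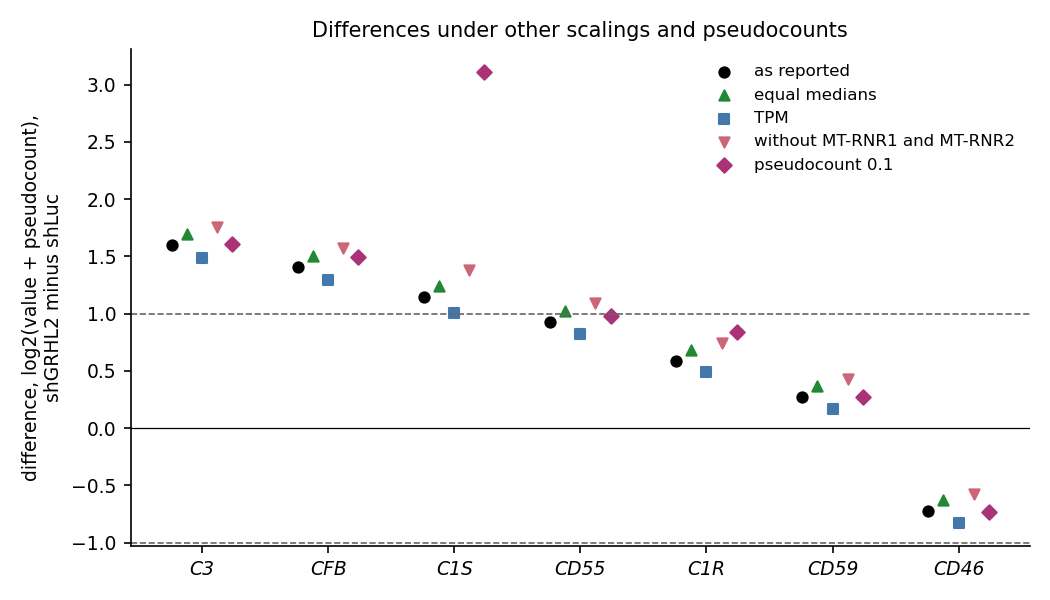
Difference of the 7 tested complement genes as reported and under 3 other scalings and a pseudocount of 0.1 FPKM, with the limit of 1 as dashed lines. Only *CD55* crosses the limit among these settings, to 1.03 with equal medians and 1.09 without *MT-RNR1* and *MT-RNR2*, and the low gene *C1S* moves most, to 3.11 with the smaller pseudocount.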

How the data were processed

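Total RNA of OVCA429 cells was sequenced as paired ends from stranded libraries (TruSeq Stranded Total RNA). The deposited values are FPKM per gene, made by the authors with bcl2fastq 2.17.1.14, STAR 2.4.2a on hg19 and RSEM 1.2.25 with Gencode v19. Whether RSEM used strand is not given in the sources used here. RSEM divides shared fragments, so overlapping genes and paralogs are uncertain. The deposited effective length is 1 value per gene. The study's test needs counts and was not used.

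Samples of a group counted as 1 library where their median CV, over genes of 100 FPKM or more, was below 3% in both groups, which held. Fragments were approximated as FPKM times effective length times a depth at which low values (single-transcript genes, effective length 300 to 1000 bases) fell on whole numbers, as 87.1% to 89.1% did per run within 0.1 fragment. Ratio intervals are exact 95% conditional binomial intervals.

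Differences of mean log2(FPKM + 1), which understate changes of low genes, were computed with Python 3.11.15, pandas 2.3.3 and scipy 1.17.1. The code was run on simulated data with counting error only and planted changes well past the limit. The genes changed there lay above the levels of *C1R*, *C1S* and *CFI*, so that run does not bear on these. Coordinates came from Gencode v44 on GRCh37, the assembly of hg19. Alternatives were a pseudocount of 0.1, no filter, a filter at 5 FPKM, equal medians, TPM, FPKM without *MT-RNR1* and *MT-RNR2*, log2 of mean FPKM, and leaving out each run. All 9 genes were named, with genes tested in the complement lists (1 is not reported here), genes past the limit in the other lists, the target *GRHL2*, and overlapping or neighboring genes. *IRF1*, *RELA*, *C5*, *UBB* and the C1q and marker genes named were chosen after their values were seen. The genes and lists were chosen with earlier results of these data known.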

Additional observations from a re-analysis of the deposited data

Results flagged for a closer look

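In 5 of 62 groups of 4 runs, over 32 genes, 1 run lay far from the others, by Dixon's test of its gap to the nearest run. Chance alone gives about 1 in 20. Among the 9 complement genes, *CFB* was at 11.35 FPKM in 1 shLuc run against 8.24 to 8.74 in the others, and *CFI* at 0.20 in 1 shLuc run against 0.05 to 0.06. *C1RL*, which overlaps *C1R*, was at 9.47 FPKM in 1 shGRHL2 run against 15.61 to 16.15. *C4A* was at 0.77 FPKM in 1 shLuc run against 0.33 to 0.38, and *GRHL2* at 1.17 in 1 shGRHL2 run against 0.10 to 0.15. The cause of these was not tested.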

How the results depend on the processing

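Under all 15 alternatives the 7 tested complement genes kept the sign of their difference wherever they were tested. *C3* ranged from 1.49 to 1.75, *CFB* from 1.29 to 1.57 and *CD46* from −0.83 to −0.57. *C1S* ranged from 1.00 with TPM, barely past the limit, to 3.11 with a pseudocount of 0.1 FPKM. Of the 7 genes *CD55* alone crossed the limit, with equal medians and without the mitochondrial ribosomal RNAs. *CFI*, not tested, passed it with a pseudocount of 0.1 FPKM (1.82). The count of higher complement genes was 3, 4 under those settings and 2 with a filter at 5 FPKM, which leaves *C1S* out, and that of lower ones 0 throughout. Their median of 0.93 was 0.76 without a filter, which adds *CFI*, and 1.09 without the mitochondrial ribosomal RNAs. Over the 6 complement lists, 5 higher genes became 8 with a pseudocount of 0.1 and 2 with a filter at 5 FPKM. Over all tested genes, 746 higher and 1087 lower became 1324 and 1663 with that pseudocount, and 464 and 807 with that filter. Leaving out each run gave medians of the tested complement genes of 0.88 to 0.97. No paired analysis was possible because no result comes from a test, the runs of a group being counted as 1 library. Depth limits *C1R*, *C1S* and *CFI*, which rest on fewer than 120 fragments per library.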
